A study of Mus musculus with 2 samples.

Results

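The cells described here are those that the authors labelled Osteoblast progenitor, a class of bone marrow stromal cells, chosen as every barcode that passed the authors' filter and carried that class label in the deposited table. There were 404 such cells among 2847 passing cells, 144 of 948 in Stroma1 and 260 of 1899 in Stroma2. RNA was counted in single cells with inDrops, a droplet method that gives each cell its own barcode. The stroma came from mice with the strain label C56BL/6, aged 8 to 16 weeks, by crushing femurs, tibiae and pelvis, digesting with collagenase and dispase, and sorting cells that lacked CD31, CD45 and Ter119, surface proteins of endothelial, white blood and red blood cells. The labels name no treatment. They put both samples in 1 group, with 2 libraries for Stroma1 and 3 for Stroma2. Whether Stroma1 and Stroma2 come from different mice is not stated, so the p-values measure only how far a difference between classes exceeded the spread between these samples. The authors gave 7 class labels, and 6 classes with at least 15 cells in each sample were compared: Osteoblast progenitor, MSC (an abbreviation that the table does not spell out), Adipocyte progenitor, Pre-adipocyte, Pre-osteoblast/chondrocyte and Pro-osteoblast. The class labels may themselves rest on the genes compared, so a difference between classes describes the class and is no independent evidence for it.

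Osteoblasts are the cells that lay down bone. They arise from stromal cells of the marrow and the bone surface, and the transcription factors Runx2 and Sp7 are both needed for the step. As the cells mature they make type I collagen, then alkaline phosphatase, bone sialoprotein, osteopontin and osteocalcin, while Wnt and bone morphogenetic protein (BMP) signals promote the path and secreted inhibitors of these signals restrain it. Reticular stromal cells of the marrow, which make the chemokine Cxcl12 and carry the leptin receptor, supply blood stem cells with niche factors and can give rise to osteoblasts and adipocytes.

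The class made up 15.19% of the passing cells of Stroma1 (exact Clopper-Pearson 95% interval 12.96 to 17.64%) and 13.69% of those of Stroma2 (12.18 to 15.32%). Its share was 16.47% and 13.74% in the libraries of Stroma1, and 10.99%, 14.02% and 16.17% in those of Stroma2. The cells held 238611 counts in Stroma1 and 389037 in Stroma2, with medians of 1513.5 and 1199 counts and 794 and 658.5 genes per cell. Mitochondrial transcripts took 7.23% and 6.90% of the counts of the class, against 4.32% and 4.31% in MSC. In Pre-osteoblast/chondrocyte cells the share was 7.74% and 6.37%, close to that of the Osteoblast progenitors. Some barcode sequences recurred among the cells of a sample, in different libraries or cells: 47 of the 260 Osteoblast progenitors of Stroma2 and 2 of the 144 of Stroma1 had such a barcode, and 12 sequences occurred in both samples. Of the 28 repeated barcode sequences with a member in Stroma2, 18 had Osteoblast progenitors only. Keeping each sequence at 1 cell per sample left 236 and 142 members, and no count of called genes against any class then moved by more than 1.5 times.

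Promoter sequences of 4 genes are printed here because the results turn on them. Wif1 and Mmp13 are markers of the class. In the main comparisons Gdf10 was called higher in it than in each other class, and Ibsp was called lower than in each. Each line gives the 250 bases that end just before the RefSeq transcription start, 5′ to 3′ on the plus strand of GRCm38.p6, at chr10:121033754-121034003 (Wif1), chr9:7272264-7272513 (Mmp13), chr14:33923337-33923586 (Gdf10) and chr5:104299037-104299286 (Ibsp). Capitals mark matches, on either strand, to the RUNX motif TGTGGT, the AP-1 motif TGANTCA, the TATA motif TATAAA and the GC box GGGCGG.
Wif1: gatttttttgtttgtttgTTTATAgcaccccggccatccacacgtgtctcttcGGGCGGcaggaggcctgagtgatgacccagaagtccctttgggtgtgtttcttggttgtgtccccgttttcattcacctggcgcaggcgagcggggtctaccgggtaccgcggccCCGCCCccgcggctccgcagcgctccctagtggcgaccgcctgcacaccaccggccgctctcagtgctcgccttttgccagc
Mmp13: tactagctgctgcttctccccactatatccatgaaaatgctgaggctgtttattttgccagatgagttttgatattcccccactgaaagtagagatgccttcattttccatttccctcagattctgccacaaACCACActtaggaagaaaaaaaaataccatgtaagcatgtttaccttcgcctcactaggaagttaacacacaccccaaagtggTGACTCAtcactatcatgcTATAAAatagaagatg
Gdf10: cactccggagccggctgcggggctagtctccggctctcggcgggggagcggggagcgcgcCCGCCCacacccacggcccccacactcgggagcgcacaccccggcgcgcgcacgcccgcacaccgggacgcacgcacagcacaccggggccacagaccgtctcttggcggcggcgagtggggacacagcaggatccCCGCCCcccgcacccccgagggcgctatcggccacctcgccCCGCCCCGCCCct
Ibsp: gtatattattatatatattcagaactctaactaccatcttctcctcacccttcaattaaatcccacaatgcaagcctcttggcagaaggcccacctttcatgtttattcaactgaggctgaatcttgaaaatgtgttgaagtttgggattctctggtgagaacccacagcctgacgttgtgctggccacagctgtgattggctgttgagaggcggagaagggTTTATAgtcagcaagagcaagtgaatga
The share of G and C was 62.8% in the Wif1 window, 40.4% in that of Mmp13, 78.8% in that of Gdf10 and 43.6% in that of Ibsp. The Mmp13 window held a RUNX match on the reverse strand 118 bases before the start, an AP-1 match at 35 bases and a TATA match at 16 bases. The Gdf10 window held 4 GC boxes, 2 of which overlap by 1 base, and none of the other motifs. The Wif1 window held 2 GC boxes and a reversed TATA match far upstream, at 232 bases, and the Ibsp window held a reversed TATA match at 28 bases. Among 32851 windows of the same length in the RefSeq table, 14.0% held the RUNX motif, 6.75% the AP-1 motif, 12.4% the TATA motif and 32.7% the GC box, so single matches are common and describe these letters only.

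The 6 markers followed here were chosen with earlier results of these data known, and the cells were taken by filter and label alone. Wif1 encodes a secreted inhibitor that binds Wnt proteins, Mmp13 a collagenase and Sp7 (osterix) a transcription factor needed for osteoblasts. Spp1 encodes osteopontin, Limch1 an actin and myosin binding protein and Tnc (tenascin C) a matrix glycoprotein. Levels are given as CPM, the counts summed over the cells of a class in a sample and scaled by their total times a TMM factor. The factor differs between classes, so these levels are not shares of all counts. Differences are log2 fold changes with their standard error from edgeR's quasi-likelihood test, called at a Benjamini-Hochberg adjusted p under 0.05 over 6229 genes. All 6 were higher in the class than in MSC (4.62% of all tested genes were), Adipocyte progenitor (2.41%) and Pre-adipocyte (4.14%). Against Pre-osteoblast/chondrocyte none was higher (4.69% of all tested genes were) and 3 were lower (4.62%). Against Pro-osteoblast 4 were higher (16.1%) and 1, Sp7, was lower (15.7%).

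Wif1 (chr10:121033960-121100650, GRCm38) had 2064 CPM in Osteoblast progenitors of Stroma1 and 2446 CPM in those of Stroma2, against 242.8 and 243.9 CPM in MSC. The samples of the class were above every sample of the other classes, although Pre-osteoblast/chondrocyte came near with 1563 and 1916 CPM. The remaining classes lay between 170.5 CPM, in Pro-osteoblast of Stroma2, and 484.7 CPM, in Adipocyte progenitor of Stroma2. The log2 fold change of Wif1 was 3.22 ± 0.14 against MSC (adjusted p = 1.34e-33) and 3.50 ± 0.17 against Pro-osteoblast (adjusted p = 4e-31), while that against Pre-osteoblast/chondrocyte, 0.35 ± 0.15, did not pass (adjusted p = 0.147). The class held 51.8% and 53.3% of all Wif1 counts of the passing cells of Stroma1 and Stroma2. Limch1 was likewise highest in the class and next highest in Pre-osteoblast/chondrocyte, with 914.5 and 941.8 CPM in Osteoblast progenitors against 191 and 171.2 CPM in MSC. It was higher than in MSC by 2.36 ± 0.16 and than in Pro-osteoblast by 5.44 ± 0.28 (adjusted p = 2.98e-21 and 2.08e-30), and not separable from Pre-osteoblast/chondrocyte at 798.7 and 831.9 CPM (0.18 ± 0.19, adjusted p = 0.666).

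Mmp13 (chr9:7272514-7283331), Spp1 and Tnc were higher in the class than in MSC, and lower than in Pre-osteoblast/chondrocyte. Mmp13 had 3335 and 4273 CPM in Osteoblast progenitors, against 526.9 and 500.3 CPM in MSC and 21410 and 23050 CPM in Pre-osteoblast/chondrocyte. The samples of the 3 classes did not overlap: the log2 fold change of Mmp13 was 2.89 ± 0.14 against MSC and -2.55 ± 0.13 against Pre-osteoblast/chondrocyte (adjusted p = 1.44e-30 and 1.25e-28). Spp1 had 3379 and 5233 CPM in the class, against 1799 and 1650 CPM in MSC, 69500 and 78730 CPM in Pre-osteoblast/chondrocyte, and 3841 and 7056 CPM in Pro-osteoblast. The level of Spp1 in the class therefore overlapped that in Pro-osteoblast (-0.36 ± 0.16, adjusted p = 0.0745), and scaling by total counts gave 0.83 for that difference. Tnc had 6515 and 7194 CPM in Osteoblast progenitors, against 3843 and 3615 CPM in MSC, 8701 and 9244 CPM in Pre-osteoblast/chondrocyte and 393.5 and 248 CPM in Pro-osteoblast. Its difference from Pre-osteoblast/chondrocyte was the smallest of the called ones among these markers, at -0.39 ± 0.13 (adjusted p = 0.0476).

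Sp7 had 180 and 186.1 CPM in Osteoblast progenitors, against 49.51 and 35.91 CPM in MSC and 515.3 and 466.4 CPM in Pro-osteoblast. With TMM scaling the class stood between them without overlap. It was higher than MSC by 2.13 ± 0.27 (adjusted p = 9.74e-10) and lower than Pro-osteoblast (-1.41 ± 0.23, adjusted p = 4.7e-07). Scaling by total counts moved the median of all genes against Pro-osteoblast from 0.02 to 1.22. In cells thinned to 500 counts, the mean Sp7 count was 0.104 and 0.112 in the class. It was 0.0952 and 0.125 in Pro-osteoblast, so at equal depth these classes overlapped. Pre-osteoblast/chondrocyte, at 186.9 and 159.7 CPM, overlapped the class (0.10 ± 0.34, adjusted p = 0.912).

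**Figure D1:**
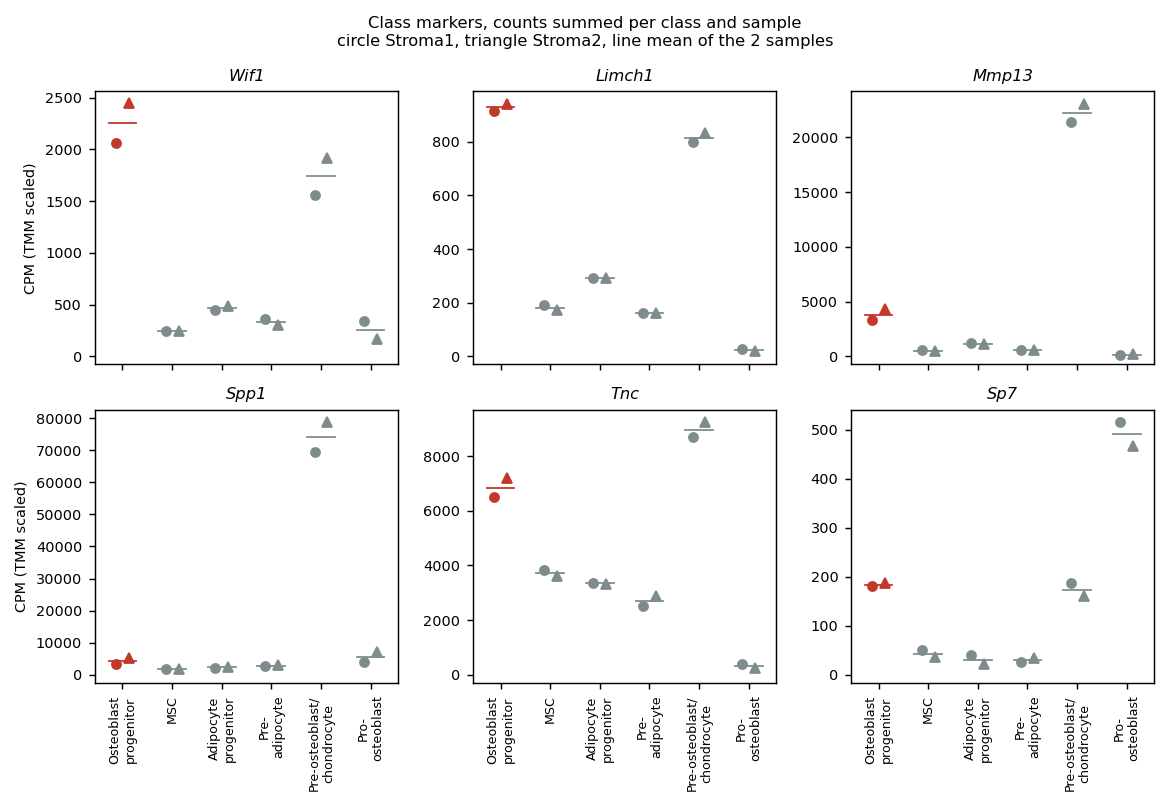
Levels of the 6 class markers (vertical axis, CPM scaled by TMM) in the 6 classes, with a circle for Stroma1, a triangle for Stroma2 and a line for their mean. Osteoblast progenitors (red) had the highest Wif1, at 2064 and 2446 CPM, and Limch1, while Mmp13, Spp1 and Tnc peaked in Pre-osteoblast/chondrocyte and Sp7 in Pro-osteoblast.

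Few genes set the class apart from every other. Against each of the other 5 classes in turn, 11 genes were called higher in all 5 tests (0.177% of the 6229 tested) and 1 was called lower in all 5 (0.0161%). For comparison, 189 genes (3.03%) had their highest level in the class in both samples. Of the markers above, none was among the 11. The 11 fell into matrix genes (Col8a1, Col3a1, Col6a2, Adamts5 and Ndnf), genes of the contractile cytoskeleton (Myl9 and Palld), and Gdf10, Islr, Clec14a and Slc20a2.

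Col8a1, a short chain collagen, had 1300 and 1378 CPM in Osteoblast progenitors, against 516.3 and 459.3 CPM in MSC, 707.7 and 761.1 CPM in Adipocyte progenitor, 433.4 and 359.4 CPM in Pre-adipocyte, 458.8 and 453.8 CPM in Pre-osteoblast/chondrocyte, and 28.11 and 9.86 CPM in Pro-osteoblast. Its smallest difference was that from Adipocyte progenitor (0.86 ± 0.13, adjusted p = 2.32e-07). Col8a1 was called against all 5 classes in each of the 10 settings in which it was tested. Col3a1, a fibrillar collagen of soft tissue, had 789.6 and 860.1 CPM in the class, and no sample of another class exceeded 524.6 CPM, the level in Pro-osteoblast of Stroma1. Its differences ran from 1.11 ± 0.16 against MSC to 2.29 ± 0.29 against Pre-osteoblast/chondrocyte (adjusted p = 3.27e-08 and 1.37e-09). A few cells held much of the Col3a1: single cells had 86 of 155 counts in library 1.1, 80 of 116 in library 2.1 and 60 of 175 in library 2.2. The libraries ran from 520.1 to 1343 raw CPM, and with cells thinned to 500 counts Col3a1 was seen in 23 of 144 and 38 of 260 members, against 84 of 502 and 122 of 815 MSC. Col6a2, a chain of the pericellular type VI collagen, had 1065 and 1221 CPM in the class, against 880.6 and 826 CPM in MSC, a difference of 0.43 ± 0.12 (adjusted p = 0.0143). Adamts5, a protease that cuts aggrecan, had 213 and 211.1 CPM in the class and at most 153 CPM elsewhere, in Pre-adipocyte of Stroma1. The 2 samples of Pre-adipocyte were far apart for Adamts5, at 153 and 53.43 CPM, and the smallest difference of the class was 1.06 ± 0.28, from Adipocyte progenitor (adjusted p = 0.00724). Ndnf, a secreted glycoprotein, had 139.6 and 115.7 CPM in the class, against 47.15 and 47.6 CPM in MSC (1.41 ± 0.33, adjusted p = 0.0012).

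Myl9, a myosin regulatory light chain, had 561.9 and 401.7 CPM in Osteoblast progenitors, against 198.3 and 310.4 CPM in Adipocyte progenitor, the class nearest to it (0.85 ± 0.21, adjusted p = 0.00332). In Pro-osteoblast it had 0 and 2.82 CPM. Palld (palladin), which bundles actin, had 661.1 and 674 CPM in the class, against 414.9 and 390.6 CPM in Adipocyte progenitor, 407.8 and 336.1 CPM in Pre-osteoblast/chondrocyte and 224 and 207.1 CPM in MSC. The smallest difference for Palld was 0.73 ± 0.17 (adjusted p = 0.00125). Slc20a2, a transporter that brings phosphate into the cell, had 154.3 and 299.6 CPM in the class, and every other class had at most 42.02 CPM. Its difference from Pre-osteoblast/chondrocyte was 2.63 ± 0.52 (adjusted p = 9.69e-05), and it was called against all 5 classes in each of the 9 settings in which it was tested. The calls of Col6a2 against all 5 classes held in 5 of 10 such settings, and those of Adamts5 and of Col3a1 in 7 of 10.

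Gdf10 (also known as BMP3B), a ligand of the TGF-beta family, had 113.9 and 145.2 CPM in Osteoblast progenitors, against 57.96 and 30.04 CPM in Adipocyte progenitor and at most 33.99 CPM in the other classes. Its smallest difference was 1.65 ± 0.40 (adjusted p = 0.00169). With DESeq2, and with cells thinned to 500 counts, Gdf10 was called against 4 of the 5 classes. Islr (meflin), a membrane protein known from mesenchymal stromal cells, had 1366 and 1291 CPM in the class against 1029 and 849.4 CPM in MSC, a small difference of 0.50 ± 0.13 (adjusted p = 0.0028). Islr was lower in the osteoblast classes, with 169.9 and 327.7 CPM in Pre-osteoblast/chondrocyte and 18.74 and 49.31 CPM in Pro-osteoblast. Clec14a, a lectin best known from endothelial cells, had 73.45 and 86.24 CPM in the class and 18.86 and 35.08 CPM in MSC (1.54 ± 0.48, adjusted p = 0.0255). It had no count in Pre-osteoblast/chondrocyte, where a floor of 3 counts over the class makes it at least 4.82-fold higher in Osteoblast progenitors. Of 10 endothelial markers, 2 and 3 had any count in the class in Stroma1 and Stroma2, their summed raw level was 20.95 and 17.99 CPM, and Cdh5, Kdr, Emcn and Tek were at 0 in both samples.

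Ibsp (bone sialoprotein), a secreted glycoprotein that seeds mineral, was the gene lower than in each of the other 5 classes. It had 2016 and 1788 CPM in Osteoblast progenitors, against 4839 and 5110 CPM in MSC, 4630 and 3819 CPM in Adipocyte progenitor, 4104 and 3745 CPM in Pre-adipocyte, 4520 and 4420 CPM in Pre-osteoblast/chondrocyte, and 3204 and 3739 CPM in Pro-osteoblast. The largest difference was that from MSC (-1.39 ± 0.13, adjusted p = 1.63e-14) and the smallest that from Pro-osteoblast (-0.90 ± 0.14, adjusted p = 5.09e-08). With scaling by total counts in place of TMM, the difference of Ibsp from Pro-osteoblast became 0.28, and its differences from the other 4 classes stayed below 0. Its promoter, printed above, held a reversed TATA match and none of the RUNX, AP-1 or GC box letters.

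**Figure D2:**
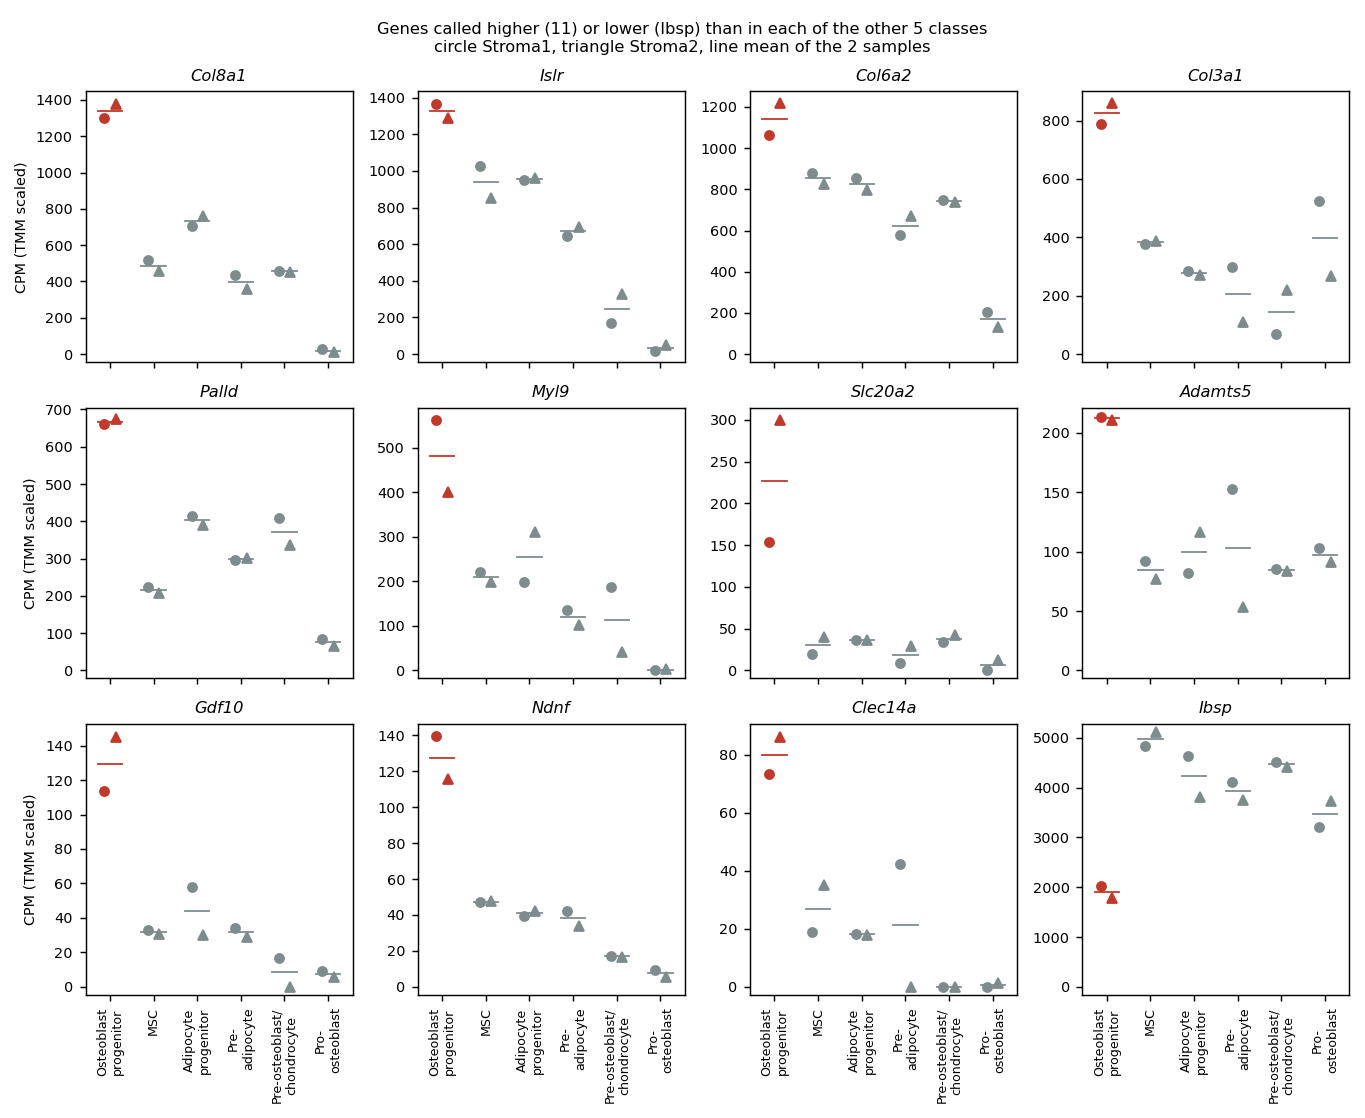
Levels (vertical axes, CPM scaled by TMM) of the 11 genes higher in Osteoblast progenitors (red) than in each of the other 5 classes, and of Ibsp, which was lower, with a circle for Stroma1, a triangle for Stroma2 and a line for the mean. Slc20a2 had 154.3 and 299.6 CPM in the class and at most 42.02 CPM in every other class, while Ibsp had 2016 and 1788 CPM and at least 3204 CPM elsewhere.

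Against MSC, the most numerous class, 288 genes (4.62%) were higher in Osteoblast progenitors and 206 (3.31%) lower, 7.93% in all, and the median log2 fold change of all tested genes was 0.01. Genes of bone formation were among those that were higher. Of 24 listed genes of bone matrix and mineralization, 23 passed the filter on low counts, 6 were higher (Alpl, Col1a1, Spp1, Bglap2, Sgms2 and Col5a2) and 2 were lower (Ibsp and Phex), with a median of 0.55, or 0.68 with genes that had no count in a class set at their bound. Alpl (tissue non-specific alkaline phosphatase), which frees phosphate for mineral, had 929.2 and 910 CPM in the class, against 91.95 and 69.32 CPM in MSC (3.53 ± 0.17, adjusted p = 5.44e-32). With TMM scaling the level of Alpl in the class overlapped that in Pro-osteoblast, at 824.4 and 946.8 CPM (0.01 ± 0.14, adjusted p = 0.968). In cells thinned to 500 counts, the mean Alpl count was 0.417 and 0.419 in the class and 0.167 and 0.239 in Pro-osteoblast. Col1a1, the main chain of bone collagen, had 991.6 and 2869 CPM in the class, against 414.9 and 710.7 CPM in MSC (1.73 ± 0.32, adjusted p = 2.91e-05) and 353000 and 413100 CPM in Pro-osteoblast (-7.72 ± 0.40, adjusted p = 3.71e-30). Bglap (osteocalcin), the late osteoblast gene, had 5 and 4 counts in the class (18.36 and 9.08 CPM), against 9734 and 7603 CPM in Pro-osteoblast. Reads of Bglap and its near copy Bglap2 may have been split by the counting, so their single levels are uncertain.

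Among the 20 listed osteogenic transcription factors, 14 passed the filter, with a median of 0.41 against MSC (0.58 with such genes at their bound). Of the 14, 4 were higher than in MSC (4.62% of all tested genes were) and 0 lower (3.31%). Besides Sp7 these included Dlx5 (1.06 ± 0.31, adjusted p = 0.0155) and Mef2c (1.22 ± 0.37, adjusted p = 0.0219). Dlx5, a homeobox factor of the BMP response, had 128.5 and 104.4 CPM in the class against 49.51 and 59.3 CPM in MSC. Runx2 had 253.4 and 354 CPM in Osteoblast progenitors, against 246.4 and 259.7 CPM in MSC and 402.9 and 364.9 CPM in Pro-osteoblast, and passed neither test (0.27 ± 0.20 and -0.24 ± 0.22, adjusted p = 0.568 and 0.453). Against Pro-osteoblast, 3 of the 14 were higher (Snai2, Tead1 and Msx1) and 6 lower, where 16.1% and 15.7% of all tested genes were. Among the lower were Sp7, Mef2c (-3.32 ± 0.29) and Twist1 (-3.10 ± 0.28). The median of that comparison changed sign with the scaling, being -0.09 with TMM and 1.12 with total counts.

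The genes with the highest ratios to MSC included Postn and Cpe. Postn (periostin), a matrix protein of periosteum and ligament, had 235.1 and 229.2 CPM in Osteoblast progenitors, against 5.89 and 5.01 CPM in MSC (5.35 ± 0.39, adjusted p = 3.36e-20) and 900.7 and 798.3 CPM in Pre-osteoblast/chondrocyte. Cpe (carboxypeptidase E), which trims peptide hormones, had 224 and 258.7 CPM in the class and 2.36 and 9.19 CPM in MSC (5.20 ± 0.32, adjusted p = 3.06e-24). Cpe was higher still in Pre-osteoblast/chondrocyte, at 577.8 and 571.4 CPM, and in Pro-osteoblast, at 2989 and 3218 CPM. Among the genes furthest below MSC, Cbln1, a secreted protein of synapses, had 5 and 4 counts (18.36 and 9.08 CPM) in the class, against 334.8 and 302.3 CPM in MSC (-4.60 ± 0.37, adjusted p = 6.03e-18).

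Secreted modulators of Wnt signalling moved in both directions. Of 22 listed genes, 9 passed the filter, and against MSC 1 was higher (Wif1) and 2 were lower (Sfrp4 and Rspo2). Sfrp4, which binds Wnt proteins, had 345.2 and 281.4 CPM in Osteoblast progenitors, against 1443 and 1318 CPM in MSC (-2.15 ± 0.15, adjusted p = 1.14e-21), so that the samples of the classes were far apart. Rspo2, an R-spondin that amplifies the Wnt response, had 77.13 and 56.74 CPM in the class and 165 and 127.8 CPM in MSC (-1.14 ± 0.32, adjusted p = 0.0112), and no count in Pre-osteoblast/chondrocyte. Its relative Rspo3 did not pass against MSC (157.9 and 172.5 CPM in the class, 110.8 and 114.4 CPM in MSC, adjusted p = 0.259). Rspo3 was higher than in Pro-osteoblast, where it had 0 and 1.41 CPM (6.81 ± 0.65, adjusted p = 2.78e-15). Against Pro-osteoblast 6 of the 9 were higher and 1, Dkk1, was lower, where 16.1% and 15.7% of all tested genes were. Dkk1, an inhibitor that blocks the Wnt co-receptors, had 0 and 1 counts in the class. Among 14 tested Wnt receptors and targets 2 were higher than in MSC and 1 lower (4.62% and 3.31% of all tested genes were); Lrp4, the receptor through which sclerostin acts in bone, had 88.14 and 129.4 CPM in the class against 25.93 and 24.22 CPM in MSC (2.14 ± 0.35, adjusted p = 1.49e-06).

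Antagonists and targets of BMP and TGF-beta signalling were likewise divided against MSC, where 4.62% of all tested genes were higher and 3.31% lower. Of 20 tested members of this list 4 were higher and 5 lower. Among the higher were Id4, a target that inhibits helix-loop-helix factors, with 587.6 and 519.7 CPM in the class against 339.5 and 347.4 CPM in MSC (0.68 ± 0.17, adjusted p = 0.00217), and Tgfbi, a matrix protein induced by TGF-beta (2.22 ± 0.58, adjusted p = 0.00478). The lower genes included Chrdl1, a secreted BMP antagonist, with 554.6 and 372.2 CPM in the class and 1224 and 1360 CPM in MSC (-1.52 ± 0.16, adjusted p = 4.72e-13). No Chrdl1 count was seen in Pre-osteoblast/chondrocyte, which made the class at least 26.2-fold higher. Smad6, an inhibitory Smad, had 180 and 177 CPM in Osteoblast progenitors and 100.2 and 100.2 CPM in MSC, and just missed the threshold (0.83 ± 0.28, adjusted p = 0.0507).

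Matrix and cytoskeleton genes made up a further group. Among 30 tested matricellular and adhesive matrix genes 10 were higher than in MSC and 4 lower (4.62% and 3.31% of all tested genes were). Vcan (versican), a large proteoglycan, had 84.47 and 217.9 CPM in the class against 15.32 and 27.56 CPM in MSC (2.79 ± 0.37, adjusted p = 5.8e-09). Omd (osteomodulin), a keratan sulphate proteoglycan of mineralized tissue, had 198.3 and 265.5 CPM in the class, against 36.54 and 38.42 CPM in MSC (2.63 ± 0.28, adjusted p = 4.38e-12) and 0 and 67.23 CPM in Pre-osteoblast/chondrocyte (2.47 ± 0.49, adjusted p = 8.39e-05). Of 16 tested collagen chains, 4 were higher than in MSC (Col3a1, Col6a2, Col8a1 and Col13a1) and 0 lower. Col13a1 had 0 and 8 counts in the class and none in MSC, so that its call rests on Stroma2. Of 23 tested genes of adhesion and the contractile cytoskeleton, 10 were higher and 1 lower, with a median of 0.51. Of 8 mural cell markers, which label contractile cells of vessels, 2 passed the filter: Abcc9 was higher than in MSC and Notch3 did not pass, and Myh11 had 0 and 1 counts in the class. The part of mural cells in the contractile genes was not tested. Tpm2, a tropomyosin of contractile fibres, had 99.16 and 93.05 CPM in the class against 16.5 and 19.21 CPM in MSC (2.39 ± 0.42, adjusted p = 9.52e-06). Among 27 tested proteases and inhibitors 6 were higher and 2 lower; Mmp14, the membrane-bound collagenase, had 205.7 and 345 CPM in the class and 109.6 and 104.4 CPM in MSC (1.36 ± 0.24, adjusted p = 8.01e-06).

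More niche factors were lower than higher in the class against MSC, where 4.62% of all tested genes were higher and 3.31% lower. Of 19 tested factors 2 were higher than in MSC (Angpt4 and Lifr) and 7 lower (Kitl, Csf1, Angpt1, Il34, Lepr, Esm1 and Vegfa), with a median of -0.24. Cxcl12, the chemokine that blood stem cells home to, had 42550 and 37720 CPM in Osteoblast progenitors, against 54580 and 56270 CPM in MSC, and did not pass (-0.48 ± 0.18, adjusted p = 0.0886). The levels of the osteoblast classes were far below that of Osteoblast progenitors, at 3365 and 3017 CPM in Pre-osteoblast/chondrocyte (3.65 ± 0.22, adjusted p = 1.4e-25) and 2961 and 984.9 CPM in Pro-osteoblast (4.59 ± 0.22, adjusted p = 2.37e-32). Kitl (stem cell factor) had 734.5 and 630.9 CPM in the class, against 1226 and 1289 CPM in MSC (-0.89 ± 0.13, adjusted p = 2.15e-07) and 93.69 and 29.59 CPM in Pro-osteoblast. Lepr, the leptin receptor, had 885.1 and 751.2 CPM in the class against 1677 and 1644 CPM in MSC (-1.03 ± 0.13, adjusted p = 7.89e-10). The largest of the 7 decreases was that of Il34, a ligand of the receptor of Csf1, with 135.9 and 106.7 CPM in the class and 498.6 and 519.5 CPM in MSC (-2.10 ± 0.21, adjusted p = 2.2e-13). Angpt4, a ligand of the Tie2 receptor, went the other way, with 374.6 and 320 CPM in the class against 107.3 and 118.6 CPM in MSC (1.60 ± 0.22, adjusted p = 3.34e-08). Lifr, a receptor subunit for leukemia inhibitory factor, had 628 and 624.1 CPM in the class and 390.2 and 385 CPM in MSC (0.70 ± 0.14, adjusted p = 0.000145).

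Adipogenic factors and lipid genes showed 0 higher and 9 lower of 22 tested against MSC, with a median of -0.26. Of all tested genes 4.62% were higher than in MSC and 3.31% lower. Lpl (lipoprotein lipase) had 3188 and 2390 CPM in Osteoblast progenitors against 4589 and 4506 CPM in MSC (-0.72 ± 0.13, adjusted p = 2.21e-05). Adipoq (adiponectin) had 1307 and 1003 CPM in the class and 1655 and 1549 CPM in MSC (-0.49 ± 0.13, adjusted p = 0.00789). Both were far above their levels in the osteoblast classes, where Adipoq had at most 84.32 CPM and Lpl at most 243.6 CPM. Of the IGF, FGF, PDGF and PTH axis, 2 of 22 tested genes were higher than in MSC and 6 lower: Pth1r, the receptor of parathyroid hormone, had 202 and 202 CPM in the class against 97.84 and 101.1 CPM in MSC (1.02 ± 0.23, adjusted p = 0.000593), and Igfbp5, which binds insulin-like growth factors, had 4760 and 4493 CPM against 10440 and 11170 CPM in MSC (-1.23 ± 0.14, adjusted p = 1.54e-11).

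Against Pre-osteoblast/chondrocyte, the class that shares its markers, 292 genes (4.69%) were higher in Osteoblast progenitors and 288 (4.62%) lower, 9.31% in all. The median of all tested genes was 0.05, and scaling by total counts, which moved that median to 0.22, gave 381 higher and 209 lower. Bone matrix and mineralization genes were 0 higher and 12 lower of 23, with a median of -1.67 (-2.0 at the bounds). Dmp1, a matrix protein of cells becoming osteocytes, had 2 and 4 counts in the class (7.34 and 9.08 CPM), against 1733 and 1513 CPM in Pre-osteoblast/chondrocyte (-7.58 ± 0.37, adjusted p = 5.94e-31). Fam20c, the kinase that phosphorylates secreted bone proteins, had 18.36 and 20.42 CPM in the class against 679.7 and 571.4 CPM (-4.96 ± 0.43, adjusted p = 2.05e-16). In the other direction, 8 of 19 niche factors and 11 of 22 adipogenic and lipid genes were higher, and 2 of each were lower. The medians were 1.71 for the niche factors and 1.86 for the adipogenic and lipid genes (0.60 and 1.69 at the bounds). Several complement and metabolic genes had no count at all in Pre-osteoblast/chondrocyte: the complement components C2 and C3 were at least 10.2-fold and 8.73-fold higher in the class, the glutathione transferase Mgst1 at least 13.3-fold and the amino acid transporter Slc1a5 at least 13.2-fold. C3, for example, had 157.9 and 140.7 CPM in Osteoblast progenitors and 373.7 and 307.3 CPM in MSC. The count of 0 in Pre-osteoblast/chondrocyte was taken over 25 and 66 cells, which limits how low those levels can be shown to be.

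Against Pro-osteoblast 1002 genes (16.1%) were higher in Osteoblast progenitors and 979 (15.7%) lower, 31.8% in all, with a median of 0.02. In this comparison the scaling moved the counts most. Col1a1 and Col1a2 took a large part of all counts of Pro-osteoblast. After each cell was thinned to 500 counts, Col1a1 alone had a mean of 104 counts per Pro-osteoblast cell in both samples. The TMM-scaled levels, 353000 and 413100 CPM for Col1a1 and 330900 and 459800 CPM for Col1a2, are not shares of all counts. The TMM factors of Pro-osteoblast were 0.59 and 0.506, which raises its scaled levels above its shares. Scaling by total counts moved the median to 1.22 and the calls to 3609 higher and 297 lower. Bone matrix and mineralization genes were 1 higher (Enpp1) and 19 lower of 23, and genes of the collagen secretion machinery 2 higher and 19 lower of 26, with medians of -4.45 (-4.31 at the bounds) and -1.75. With total counts these counts were 3 and 17 and 6 and 14, still with medians below 0, at -3.30 and -0.57. Niche factors were 12 higher and 1 lower of 19, the lower being Ptn, and adipogenic and lipid genes 15 higher and 2 lower of 22. Tnfsf11 (RANKL), the cytokine that drives osteoclast formation, had 69.78 and 111.2 CPM in Osteoblast progenitors and no count in 42 and 305 Pro-osteoblast cells, so that it was at least 26.0-fold higher. Fgf7 had 51.42 and 59.01 CPM and was at least 15.3-fold higher, and Ptgfr, the prostaglandin F receptor, at least 16.0-fold. Lower in the class by wide margins were Entpd3 and Pcsk6, which had no count in the class and were at least 144-fold and 123-fold lower, and Col11a2, with 0 and 11.35 CPM in the class against 4609 and 5067 CPM in Pro-osteoblast (-9.39 ± 0.27, adjusted p = 1.16e-47).

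**Figure D3:**
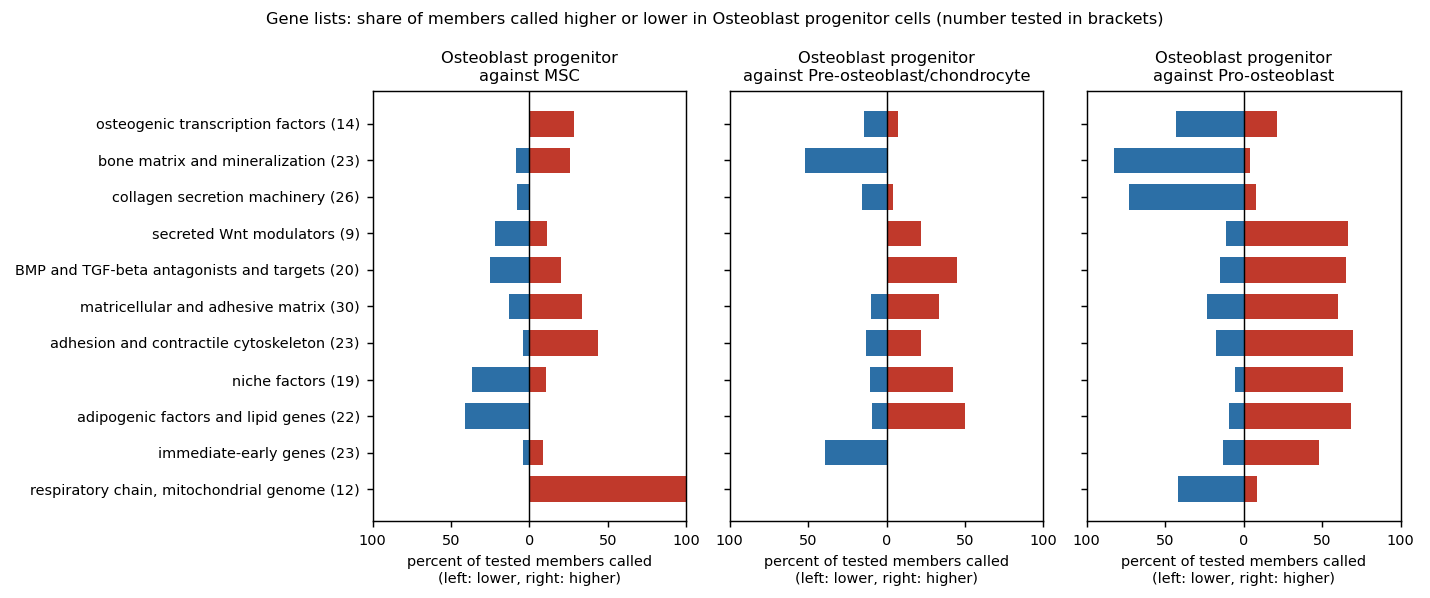
Share of the tested members of 11 gene lists that were called higher (red, right) or lower (blue, left) in Osteoblast progenitors against MSC, Pre-osteoblast/chondrocyte and Pro-osteoblast (horizontal axes, percent of tested members, with their number in brackets). Bone matrix genes were 6 higher and 2 lower of 23 against MSC and 1 higher and 19 lower against Pro-osteoblast, while niche factors were 2 higher and 7 lower of 19 against MSC and 12 higher and 1 lower against Pro-osteoblast.

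Against the mean of the other 5 classes 373 genes (5.99%) were higher and 197 (3.16%) lower, 9.15% in all, with a median of 0.06. Scaling by total counts gave 1031 higher and 84 lower, with a median of 0.41. Immediate-early genes, whose transcription is switched on quickly by stimuli and by tissue handling, were 0 higher and 20 lower of 23 tested. Against Adipocyte progenitor (7.55% of all genes called, 5.14% lower) and Pre-adipocyte (13.4% called, 9.23% lower) all 23 were lower. Against Pre-osteoblast/chondrocyte 0 were higher and 9 lower (4.69% and 4.62% of all tested genes were). Against MSC 2 were higher and 1 lower (4.62% and 3.31%), and against Pro-osteoblast 11 were higher and 3 lower (16.1% and 15.7%). Fos had 1748 and 2231 CPM in Osteoblast progenitors, against 2135 and 2288 CPM in MSC, 12990 and 12250 CPM in Adipocyte progenitor and 16700 and 13750 CPM in Pre-adipocyte. The differences of Fos were -0.15 ± 0.14 from MSC (adjusted p = 0.695), -2.66 ± 0.14 from Adipocyte progenitor and -2.93 ± 0.15 from Pre-adipocyte (adjusted p = 1.24e-27 and 1.29e-30).

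Transcripts of the mitochondrial genome were higher than in MSC for 12 of 12 tested genes, with a median of 0.73, and for 0 of 12 against Pre-osteoblast/chondrocyte, where none was lower either. mt-Co3 had 5094 and 4866 CPM in Osteoblast progenitors, against 2661 and 2551 CPM in MSC (0.93 ± 0.13, adjusted p = 1.09e-08). Of 32 tested respiratory chain genes of the nucleus 3 were higher than in MSC and 0 lower (4.62% and 3.31% of all tested genes were). The share of mitochondrial counts per cell, which is also used as a sign of cell quality, moves with these genes by construction, and its part in other differences was not tested. Of 12 tested cell cycle genes 4 were higher than in MSC: Ccnd1, Ccnd2, Cdkn1a and Stmn1. Ccnd2, a cyclin of the start of the cycle, had 191 and 170.2 CPM in the class against 86.05 and 86.02 CPM in MSC (1.05 ± 0.25, adjusted p = 0.00118), and Cdkn1a (p21), which halts the cycle, had 139.6 and 129.4 CPM against 70.73 and 59.3 CPM (1.05 ± 0.25, adjusted p = 0.00197). Cartilage genes were scarce: 5 of 27 passed the filter. Sox9, the cartilage transcription factor, had 10 and 27 counts in the class (36.73 and 61.27 CPM), against 11.79 and 30.07 CPM in MSC, and did not pass (1.20 ± 0.44, adjusted p = 0.0837). Col2a1, the collagen of cartilage, had 3 and 0 counts in the class.

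The markers were spread unevenly over the cells of the class. To compare cells at 1 depth, each cell was thinned to 500 counts, a depth that every member reached. Wif1 then had a count in 45.1% of the members of Stroma1 (exact 95% interval 36.8 to 53.6%) and 55.4% of those of Stroma2 (49.1 to 61.5%), against 11.8% and 11.3% of MSC, 52.0% and 40.9% of Pre-osteoblast/chondrocyte cells and 7.14% and 4.26% of Pro-osteoblast cells. Unthinned, the members' shares were 74.3% and 72.7%. Limch1 had a count in 38.9% and 39.2% of the thinned members, against 7.77% and 9.20% of MSC, 32.0% and 28.8% of Pre-osteoblast/chondrocyte cells and 0% and 0.66% of Pro-osteoblast cells. For 0 of 42 cells, 3 counts allow up to 7.14% of cells with a count at the thinned depth. Unthinned, Limch1 had a count in 4.76% and 3.93% of Pro-osteoblast cells. Sp7 had a count in 9.03% and 9.62% of members, against 2.79% and 2.45% of MSC and 7.14% and 11.5% of Pro-osteoblast cells. Bglap, by contrast, was seen in 0% and 0.39% of thinned members, where 0 of 144 cells allows up to 2.08%, and in 64.3% and 67.9% of Pro-osteoblast cells.

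At least 3 of the 6 markers had a count in 63.9% and 68.5% of the thinned members, against 17.5% and 17.3% of MSC, 20.6% and 21.5% of Adipocyte progenitors, 9.09% and 13.8% of Pre-adipocytes and 4.76% and 1.97% of Pro-osteoblasts. The share was 92.0% and 83.3% in Pre-osteoblast/chondrocyte. None of the 6 was seen in 2 and 6 members (1.39% and 2.31%). Members with a Wif1 count carried Alpl more often than members without: 29 of 65 cells against 15 of 79 in Stroma1, and 50 of 144 against 23 of 116 in Stroma2. Lepr went the other way, with 32.3% and 18.8% of the members with Wif1 and 49.4% and 34.5% of those without. These shares describe cells of the same libraries, and no test was made over cells.

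**Figure D4:**
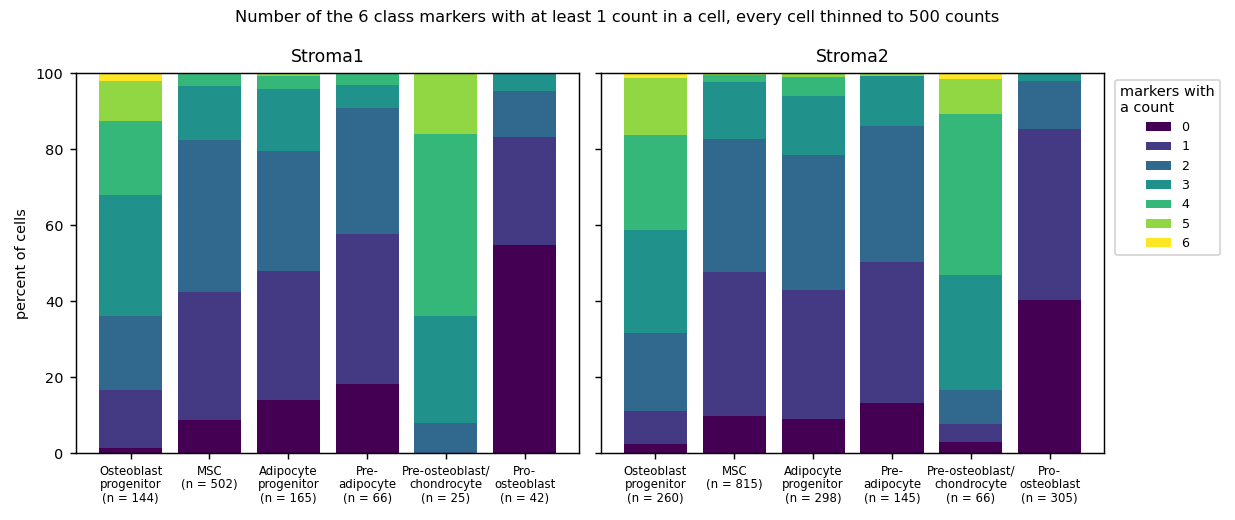
Share of cells (vertical axis, percent) by how many of the 6 class markers had a count after each cell was thinned to 500 counts, for the 6 classes in Stroma1 and Stroma2. At least 3 markers were seen in 63.9% and 68.5% of Osteoblast progenitors, 17.5% and 17.3% of MSC and 92.0% and 83.3% of Pre-osteoblast/chondrocyte cells.

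Beyond counting noise, the genes with the highest ratio of variance to mean among members were of several kinds. This ratio can rise with the mean, so it does not rank genes by relative spread. Among 617 genes with a mean of at least 0.1 counts per thinned cell, the variance divided by the mean had a median of 1.19 in Stroma1 and 1.29 in Stroma2, and counting alone gives 1. It was 5.99 and 8.37 for Cxcl12, 5.63 and 5.70 for Mmp13, and 5.51 and 5.83 for Col3a1, the collagen seen in 16.0% and 14.6% of members. Mgp (matrix Gla protein), an inhibitor of mineralization, had 5.76 and 3.95, and Lpl 3.93 and 3.41. Cxcl12 had a mean of 26.7 and 24.1 counts per thinned cell and was seen in 96.5% and 94.6% of members. Mgp and Lpl, as well as Cxcl12, were lower in the later cells of the path described next, and Mmp13 and Col3a1 were higher there.

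The authors placed cells on paths toward 3 fates and gave each a rank between 0 and 1 along a path. Of the 404 members 354 were on the osteoblast path, with a median rank of 0.71, and 400 on the chondrocyte path, with a median rank of 0.83; 339 were on these 2 only, and 25 were on the adipocyte path. The median ranks of MSC were 0.31 and 0.35 on the osteoblast and chondrocyte paths. Pre-osteoblast/chondrocyte cells had a median of 0.97 on the chondrocyte path and Pro-osteoblasts one of 0.91 on the osteoblast path. The members' medians of the authors' fate probability were 31.97% for adipocyte, 33.78% for osteoblast and 34.24% for chondrocyte, close to even. The probability had a narrow scale. Its median for osteoblast was 29.08% in Pre-adipocyte, 33.8% in MSC and 41.2% in Pro-osteoblast. These ranks and probabilities were made from expression, so what follows is a description with no test.

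Members past their sample's median rank on the chondrocyte path were compared with those before it, 72 against 72 cells in Stroma1 and 128 against 128 in Stroma2. Wif1 had 468 counts in the later and 94 in the earlier cells of Stroma1, and 889 and 186 in those of Stroma2, a log2 ratio of raw CPM of 2.06 and 1.97. Col1a1 (2.23 and 2.33), Col3a1 (2.16 and 2.21), Alpl (2.38 and 1.84) and Mmp13 (2.22 and 1.36) were likewise higher in the later cells. Single cells of the class held 86 of 155 Col3a1 counts in library 1.1 and 262 of 474 Col1a1 counts in library 2.3. The part of such cells in these ratios was not tested. Postn had 63 counts in the later against 1 in the earlier cells of Stroma1, and 96 against 5 in Stroma2. Of the 11 genes higher than in each other class, Slc20a2 (1.42 and 1.81) and Ndnf (1.43 and 1.75) were also higher late, while Col8a1 (0.53 and 0.06) and Col6a2 (0.19 and 0.23) differed little and Myl9 was slightly lower (-0.09 and -0.37). Lower in the later cells were Lpl (-2.12 and -2.25), Mgp (-1.89 and -1.68), Adipoq (-1.32 and -1.57), Lepr (-0.88 and -1.29), Cxcl12 (-0.79 and -1.05) and Ibsp (-0.78 and -0.82). Only chosen genes were compared in this way, some of them picked by the class comparisons in these same cells. Of the chosen genes, 27 had at least 50 counts in each sample. Of these 27, 14 were higher and 12 lower in the later cells of both samples, and Islr differed in sign. These numbers describe the chosen genes only, with no share over all genes to set beside them.

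**Figure D5:**
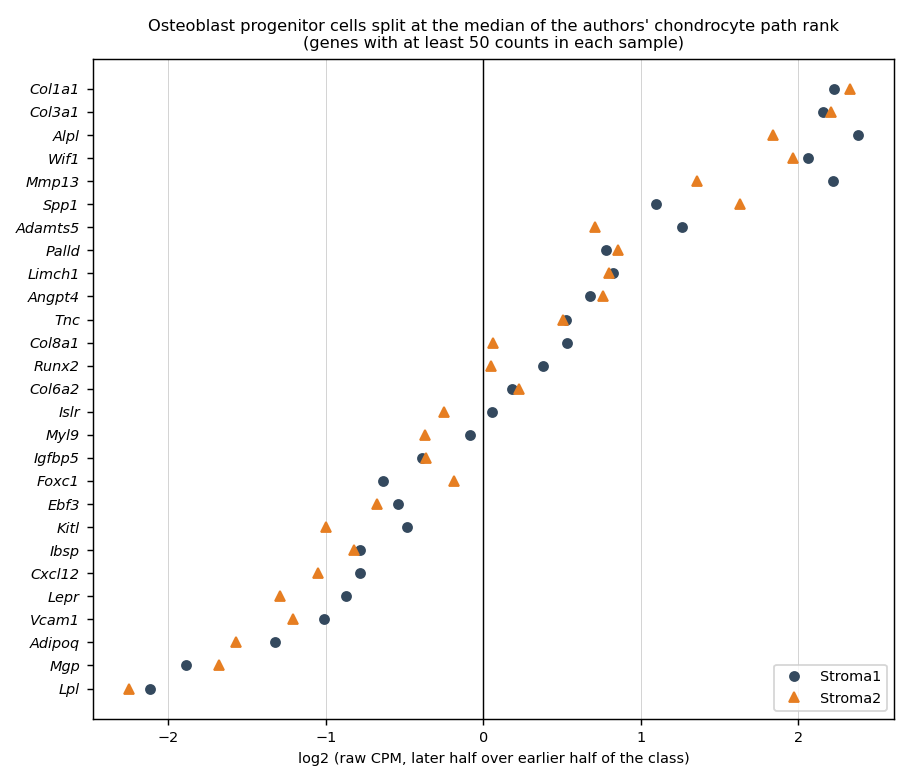
Log2 ratio of raw CPM (horizontal axis) between Osteoblast progenitors past and before their sample's median rank on the authors' chondrocyte path, for 27 chosen genes with at least 50 counts in each sample, with a circle for Stroma1 and a triangle for Stroma2. Wif1, at 2.06 and 1.97, Alpl, Col1a1 and Col3a1 were higher in the later cells, and Lpl, at -2.12 and -2.25, Mgp and Adipoq were lower. Single cells held much of the Col1a1 and Col3a1 counts in some libraries.

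Few genes of the class differed widely between the samples. Among 2189 genes with at least 50 counts in the class, 56 (2.56%) differed by at least 2-fold in CPM between samples, 16 of them higher in Stroma1 and 40 in Stroma2, and the median absolute log2 difference was 0.25. Wif1 was even across libraries, at 2448 and 2230 raw CPM in those of Stroma1 and 2960, 2717 and 2713 raw CPM in those of Stroma2. Col1a1 was not: it had 1213 and 1022 raw CPM in the libraries of Stroma1 and 1731, 4873 and 2801 raw CPM in those of Stroma2. Single cells held 233 of its 635 counts in library 2.2 and 262 of 474 in library 2.3. The 4 members of Stroma2 that were off the chondrocyte path held 310 of its 1264 Col1a1 counts, and without them the level in Stroma2 was 2488 raw CPM, still above the 1132 raw CPM of Stroma1. S100a9, a neutrophil gene, had 1 count in Stroma1 and 80 in Stroma2, of which 75 lay in 1 cell of library 2.2, and S100a8 had 1 and 53, of which 45 lay in 1 cell.

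Markers of other cells that the sort could hold were also summed in the class. The summed raw level of 15 blood cell markers was 180.2 and 493.5 CPM in Osteoblast progenitors and 128.9 and 123.8 CPM in MSC. Of these markers 6 and 12 had any count in the class in Stroma1 and Stroma2, and Ptprc, which encodes CD45, had 0 and 1 counts in the class. The part of these counts in the calls of S100a8, S100a9 and Mmp9 as higher than in MSC was not tested, and in Stroma1 alone S100a8, S100a9 and Mmp9 had 1 count each. The 8 mural cell markers, 5 and 6 of them with a count, summed to 783.7 and 562.9 raw CPM in the class, the highest sum of these lists, against 571.8 and 584.7 raw CPM in MSC. Most of it was Notch3, a Notch receptor, with 118 and 134 counts, and Abcc9, a subunit of potassium channels, with 57 and 74. Notch3 had 433.4 and 304.1 CPM in the class against 367.8 and 399.2 CPM in MSC (-0.09 ± 0.18, adjusted p = 0.882), where the classes overlapped. Abcc9 had 209.3 and 167.9 CPM against 71.91 and 63.47 CPM in MSC (1.46 ± 0.28, adjusted p = 5.36e-05). Both were higher than in Pro-osteoblast and than the mean of the other classes. The 7 Schwann cell markers, 2 and 5 of them with a count, summed to 213.7 and 295.6 raw CPM, nearly all of it S100b, with 183.6 and 238.3 CPM in the class against 121.4 and 114.4 CPM in MSC (0.85 ± 0.26, adjusted p = 0.0198). Of the 12 fibroblast and tendon markers, Fmod alone passed the filter, and Pi16, Dpp4, Cd34, Ly6a and Scx were at 0 in both samples. Fmod (fibromodulin), a collagen-binding proteoglycan, had 154.3 and 108.9 CPM in the class against 50.69 and 35.91 CPM in MSC (1.60 ± 0.34, adjusted p = 0.000307).

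The genes whose level over the 12 class and sample sums followed that of Wif1 most closely were Hey1, with a Spearman correlation of 0.94, Tpm2 with 0.94, Tmem38b with 0.89, and Limch1 and Palld with 0.87 each. The 12 sums come from 2 samples and share their depth and scaling, so these are descriptions. Hey1, a target of Notch signalling, had 88.14 and 102.1 CPM in Osteoblast progenitors, against 21.22 and 23.38 CPM in MSC (2.08 ± 0.38, adjusted p = 1.76e-05) and 67.97 and 117.6 CPM in Pre-osteoblast/chondrocyte. Tmem38b, a cation channel of the endoplasmic reticulum, had 91.82 and 104.4 CPM in the class and 47.15 and 45.93 CPM in MSC (1.08 ± 0.33, adjusted p = 0.0235).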

How the data were processed

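Counts of 25289 genes in 15028 barcodes were used as the authors deposited them. Bowtie 1.1.1 and the GRCm38 genome are named in the submitters' processing notes with no role; how reads were counted, and whether molecular identifiers were used, is not given in the sources used here. Fractions that the authors deposited, per the file headers, give mitochondrial share, fate probability and rank on each path. The authors also deposited a potential score, which was not used here. Cells and classes were those of the authors' filter and labels. No doublet caller was run.

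Counts were summed per class and sample, for 6 classes with at least 15 cells in each sample; Pro-chondrocyte was left out of the tests. Sums were tested with edgeR 4.0.16 in R 4.3.3, by quasi-likelihood tests with class and sample as terms, TMM scaling and filterByExpr with a minimum count of 10, which left 6229 genes and 5 residual degrees of freedom. The 6 classes shared 1 estimate of spread (common dispersion 0.0155). Genes were called at an adjusted p under 0.05 (Benjamini-Hochberg, all 6229 genes). Standard errors are the log2 fold change over the square root of F. On simulated counts for the comparison with the mean of the other classes, over 6229 genes, it called 46% of 100 genes changed 2-fold, 87% of 100 changed 4-fold and 0.12% of unchanged genes. The simulated classes shared the same profile apart from the changed genes and the common dispersion, with no sample effect. These rates therefore do not cover the differences in composition between the real classes. A gene with no count in a class was given a floor of 3 counts over that class for bounds on folds, and no fitted fold change against it. Shares have exact 95% intervals, which like the floors cover counting error only. Depth per class and sample ran from 55218 to 1450797 counts, and the smallest class sums are the least precise.

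The members, markers and gene lists were chosen with earlier results of these data known. Named genes are the 6 markers, the genes called against each of the other 5 classes, the 8 highest and 8 lowest called against MSC, Pre-osteoblast/chondrocyte and Pro-osteoblast, the 12 highest and 6 lowest against the mean, up to 4 list members in each direction, and the 5 most like Wif1. Other genes named were chosen after their values were seen. Alternatives were RLE scaling, other filters, DESeq2 1.42.0, no term for sample, sums per library, cells thinned to 500 counts, repeated barcodes and very deep cells left out, and, added after seeing the data, scaling by total counts.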

Additional observations from a re-analysis of the deposited data

Results flagged for a closer look

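Wif1 counts lay partly outside the cells described. Of 1294 Wif1 counts in all barcodes of Stroma1, 209 (16.2%) were in barcodes that the authors' filter did not pass or did not label, and of 2452 in Stroma2, 428 (17.5%) were. Barcodes that did not pass held 130 and 124 of them, and barcodes with no filter label 79 and 304. These barcodes carry no class, and no comparison above used them.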

How the results depend on the processing

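Scaling by total counts, chosen after seeing the data, gave 1115 calls against the mean of the 5 classes (570 with TMM) and 3906 against Pro-osteoblast (1981 with TMM). It left 0 genes lower than in each class, since Ibsp lost 1 of its calls. Its splits of higher and lower calls were 192 and 251 against Adipocyte progenitor (150 and 320 with TMM) and 607 and 458 against Pre-adipocyte (258 and 575 with TMM), with median shifts of all genes of 0.14 and 0.33. Thinning cells to 500 counts, which leaves fewer counts, gave 301 calls against the mean, 288 against MSC (494 without thinning), 262 against Adipocyte progenitor (470), 446 against Pre-adipocyte (833), 245 against Pre-osteoblast/chondrocyte (580) and 754 against Pro-osteoblast. DESeq2 called 278 genes against MSC and 301 against Adipocyte progenitor. Against Pro-osteoblast, a minimum count of 30, which tests fewer genes, gave 1266, and leaving out very deep cells gave 1306. The 11 genes higher than in each class became 7 with no filter on low counts, 3 with DESeq2 and 5 with thinned cells. Genes lower than in each class numbered 2 with RLE scaling, 2 with a minimum count of 30 and 2 with sums per library. The share of the class in Stroma2 was 10.99% in library 2.1 alone and 16.17% in library 2.3 alone. Where no cause is given, the cause was not tested.

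Every class was sampled in both Stroma1 and Stroma2, so sample was the block. Without the block, 563 genes were called against the mean, 495 against MSC, 456 against Adipocyte progenitor, 850 against Pre-adipocyte, 577 against Pre-osteoblast/chondrocyte and 2065 against Pro-osteoblast, all within 1.5 times of the counts with it. Leaving out a sample leaves no residual degrees of freedom, so that it gave one-sample differences and no counts of calls. Among called results, the sign changed without Stroma2 for 4 genes: Stroma1 alone and Stroma2 alone gave -0.31 and 2.90 for Retnlg against MSC, and against the mean -1.22 and 1.64 for Mmp9, -1.44 and 3.14 for S100a9, and -1.21 and 2.98 for S100a8.

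Of 3564 values of 288 gene results under other settings, 3003 counted as unchanged, 250 lost the call, 24 gained it and 263 moved. A further 24 changed sign where the main or the other value was called. Unchanged meant the same side of the threshold, with either sign where neither value was called. For one-sample differences, which have no call, it meant no further from the main value than their standard deviation. Of these, 178 were unchanged without Stroma1 and 131 without Stroma2. Besides the 4 above, the sign changed for Spp1 (0.83) and Ibsp (0.28) against Pro-osteoblast with total counts, and for Thbs1 against the mean with thinned cells (0.07). With all other cells pooled in place of the mean of classes, which weights MSC more, the log2 fold change was -0.033 for P2rx2, -0.48 for Rspo2, -1.06 for Chrdl1, -0.074 for Cxcl12, -0.50 for Kitl, -0.83 for Angpt1, -1.60 for Il34, -0.65 for Lepr, -1.07 for Esm1, -0.24 for Lpl, -0.18 for Adipoq and -0.18 for Cdkn1c. With the mean taken without Pro-osteoblast it was -0.081 for Kitl, -0.53 for Csf1, -0.16 for Lepr, -0.15 for Esm1 and -1.06 for Tnfsf11. Depth limits levels near 0 in Pre-osteoblast/chondrocyte, which held 91 cells.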

Other observations

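Genes of the interferon response and antigen presentation were higher in the class than in the osteoblast classes for many of those tested. Of 20 tested genes, 0 were higher and 1 was lower against MSC, 6 were higher and 0 lower against Pre-osteoblast/chondrocyte, and 16 were higher and 0 lower against Pro-osteoblast, with medians of -0.20, 1.05 and 2.33 on the log2 scale. Of all tested genes 4.69% were higher than in Pre-osteoblast/chondrocyte and 16.1% higher than in Pro-osteoblast. Bst2 (tetherin), which holds budding viruses at the cell surface, had 418.7 and 317.7 CPM in Osteoblast progenitors, against 67.97 and 151.3 CPM in Pre-osteoblast/chondrocyte and 28.11 and 59.18 CPM in Pro-osteoblast. The samples did not overlap. Genes of Notch and Hedgehog signalling were 2 higher and 1 lower of 11 tested against MSC, where 4.62% and 3.31% of all tested genes were, and 7 higher and 0 lower against Pro-osteoblast, where 16.1% and 15.7% were.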
